A study of Mus musculus with 21 samples.

Results

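The chemokine genes Ccl1, Ccl3, Ccl4, Ccl5, Ccl20, Cxcl10 and Xcl1 were followed in mouse CD4 T cells that had been driven toward different effector types by cytokines. They are 7 of the 23415 genes in the expression table, where they were found by their symbols (CCL1, CCL3, CCL4, CCL5, CCL20, CXCL10 and XCL1). Libraries were kept where at least 7000 genes reached 1 TPM (a share of the transcripts in a library, corrected for transcript length), which left 16 of 21. The study grew naive CD4 T cells, low in CD44, high in CD62L and without CD25, from spleen and lymph nodes on plates coated with antibodies to CD3 and CD28. All mice were heterozygous for an Il23r reporter allele, in which eGFP is made in place of a working IL-23 receptor, so the cells of all groups kept 1 intact copy of Il23r. After 5 days the cells were separated by eGFP into GFPpos and GFPneg fractions, and RNA was read with a SMART-Seq2 protocol. Age and sex of the mice are not given in the labels.

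Cultures with IL-12 and IL-21, at 20 ng/ml each, were represented by 3 GFPpos and 2 GFPneg libraries. Cultures with IL-12 at 20 ng/ml were represented by 2 GFPneg libraries and had no GFPpos group. Cultures with IL-1b at 20 ng/ml, IL-6 at 25 ng/ml and IL-23 at 20 ng/ml were represented by 3 GFPpos and 3 GFPneg libraries. Cultures with human TGF-b at 2 ng/ml and IL-6 at 25 ng/ml were represented by 1 GFPpos and 2 GFPneg libraries. The 4 cultures are named below after the cytokine that sets each apart: IL-12+IL-21, IL-12, IL-23 for the third and TGFb for the last. The labels do not say whether replicates came from separate mice or cultures, so the p-values cover the spread among these libraries and no more.

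Chemokines are small secreted proteins that bind receptors on other cells and direct where those cells move. Effector T cells release different sets: IFN-gamma-producing Th1 cells are known for Ccl3, Ccl4 and Ccl5, while IL-17-producing Th17 cells are known for Ccl20 and for its receptor CCR6. Th1 cells form under IL-12, whereas the mixtures that contain IL-6 lead to Th17 cells.

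The 7 genes divided the cultures by which of them was most abundant. Ccl3 was highest of the 7 in every one of the 7 libraries with IL-12, Ccl5 in all 6 libraries with IL-23, where it made 78.9% to 92.4% of their sum, and Ccl20 in all 3 with TGFb, where it made 91.8% to 95.2%. The summed level was 545 to 827 TPM in GFPpos cells of IL-12+IL-21, 446 to 735 TPM in IL-12+IL-21 GFPneg cells and 3046 to 4416 TPM in IL-12 GFPneg cells. It was 110 to 157 TPM in IL-23 GFPpos cells, 192 to 222 TPM in IL-23 GFPneg cells, 985 TPM in TGFb GFPpos cells and 886 to 1122 TPM in TGFb GFPneg cells. The labelled identity of the cells was checked in the same libraries. The 5 defining markers of CD4 T cells summed to 740 to 1403 TPM, Ifng was 131 to 1474 TPM with IL-12 and at most 0.9 TPM elsewhere, and Il17a was 81.6 to 1199 TPM with IL-6 and at most 2.47 TPM in the IL-12 cultures.

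**Figure D1:**
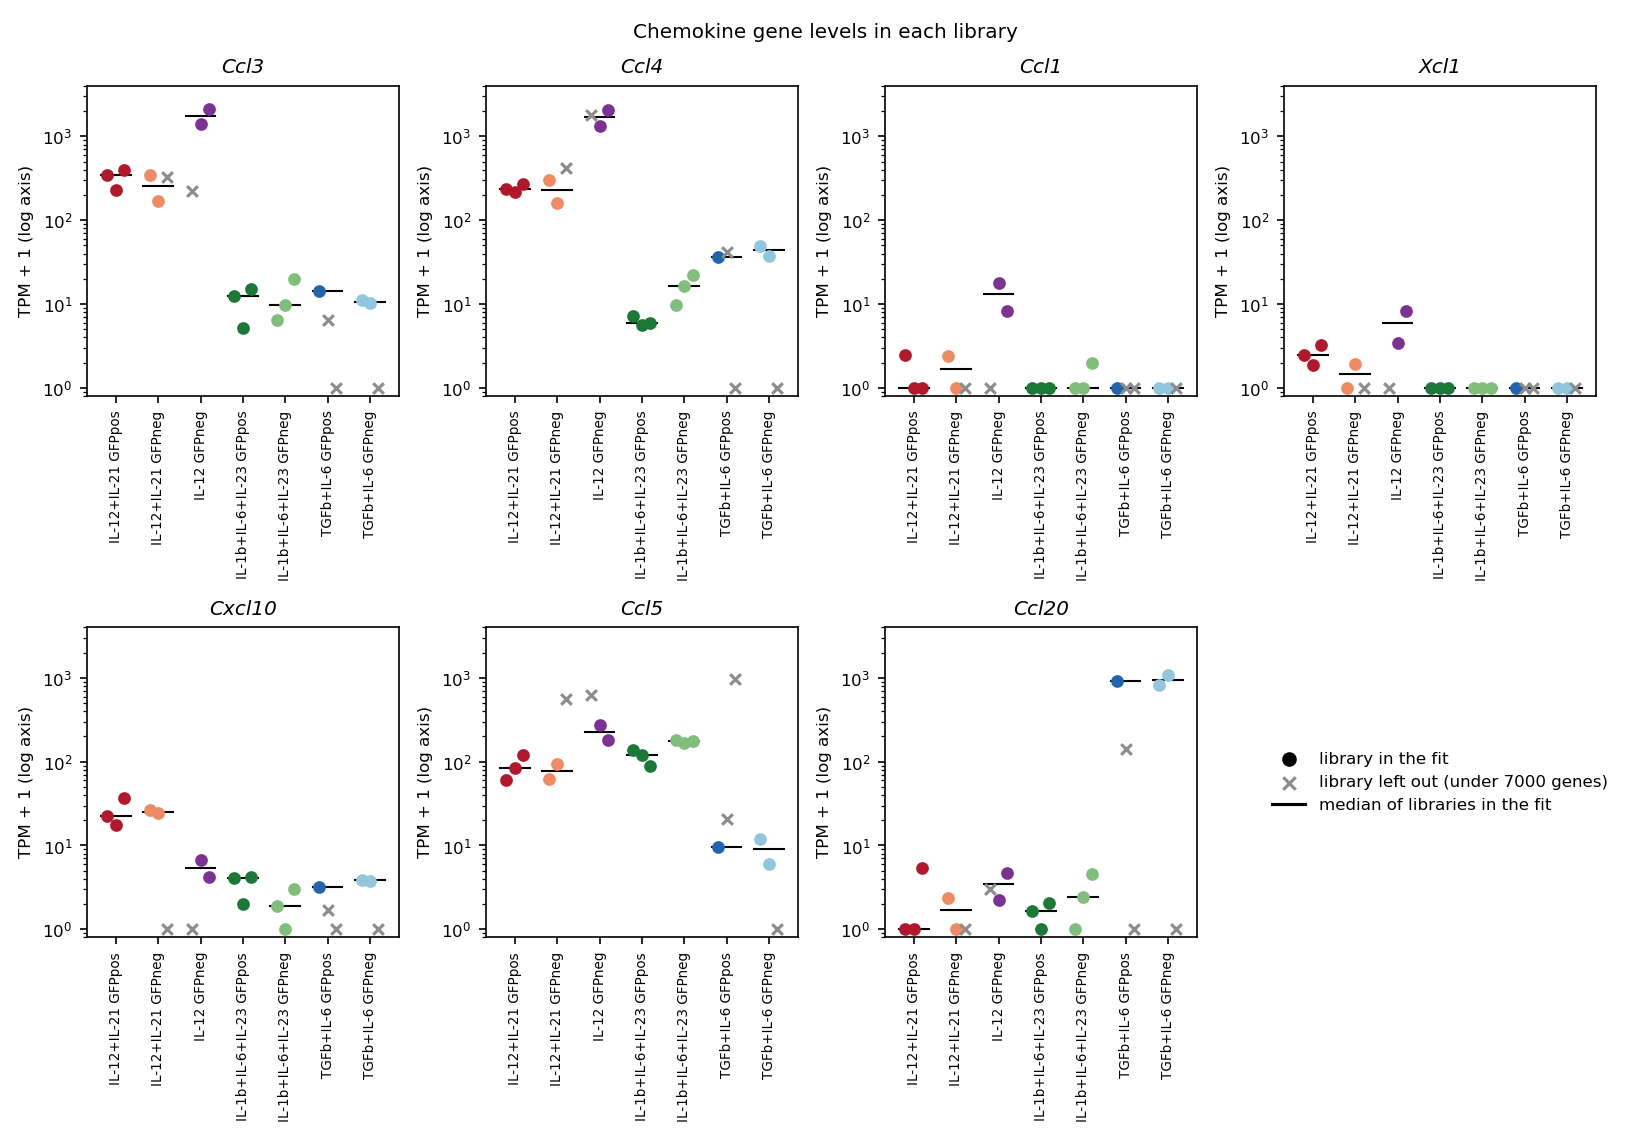
Levels of the 7 chemokine genes as TPM + 1 on a log axis, 1 point for each of the 21 libraries. Circles are the 16 libraries used, grey crosses the 5 left out and lines the medians of those used. The 7 groups are side by side, with the IL-23 and TGFb cultures under their full cytokine names. Among the libraries used, Ccl3 and Ccl4 stand highest with IL-12 (1327 to 2119 TPM), Ccl20 with TGFb (813 to 1068 TPM) and Cxcl10 with IL-12+IL-21 (16.7 to 35.4 TPM).

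A moderated F test across the 7 groups gave an adjusted p under 0.05 for Ccl3, Ccl4, Ccl5, Ccl20 and Cxcl10, where 24.9% of the 9592 genes tested reached it. Ccl4 ranked 12th among them (adjusted p = 7.09e-10) and Ccl3 ranked 30th (adjusted p = 2.89e-08). Genes were tested where at least 3 libraries had 1 TPM or more. Ccl1 and Xcl1 reached 1 TPM in 4 libraries each, all from IL-12 or IL-12+IL-21 cultures, so they entered the test through the groups in which they were high and had to differ. Their own F tests also passed, and their differences between cultures with and without IL-12, or between those with IL-12, are given as a description and left out of the counts and medians of the remaining 5 genes below. The 5 libraries that were not kept held 190 to 5608 genes at 1 TPM or more, against 7522 to 9248 in those used. With all 21 in the fit, calls among the 7 genes fell to 0 in each comparison below, other than IL-12 against TGFb, where Ccl1 and Ccl3 passed. The 3 GFPpos minus GFPneg comparisons had 0 with 16 and with 21 libraries. Since these are bulk samples, fewer cells making a transcript and less of it per cell cannot be told apart.

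Promoter sequences are shown for 3 genes that were each highest in a different culture, Ccl3 with IL-12, Cxcl10 with IL-12+IL-21 and Ccl20 with TGFb. They are RefSeq sequences of GRCm38.p6, written 5′ to 3′ on the strand of the gene, from 250 bases before to 50 bases after the start site. Capitals mark matches to 4 motifs, searched on both strands: the kappaB motif GGGANNNNCC of NF-kappaB factors, the interferon-stimulated response element GAAANNGAAA, the ROR site AGGTCA and the T-box site TCACACCT. The table held windows for 5 of the 7 genes. The Ccl3 window is chr11:83649329-83649628 on the minus strand, that of Cxcl10 is chr5:92348840-92349139 on the minus strand, and that of Ccl20 is chr1:83116516-83116815 on the plus strand.
Ccl3: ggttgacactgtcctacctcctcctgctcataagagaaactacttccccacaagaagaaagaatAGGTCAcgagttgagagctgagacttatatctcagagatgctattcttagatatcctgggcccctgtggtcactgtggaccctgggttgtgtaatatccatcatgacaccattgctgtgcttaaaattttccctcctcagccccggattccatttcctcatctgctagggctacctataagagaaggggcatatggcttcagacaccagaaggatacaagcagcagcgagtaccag
Cxcl10: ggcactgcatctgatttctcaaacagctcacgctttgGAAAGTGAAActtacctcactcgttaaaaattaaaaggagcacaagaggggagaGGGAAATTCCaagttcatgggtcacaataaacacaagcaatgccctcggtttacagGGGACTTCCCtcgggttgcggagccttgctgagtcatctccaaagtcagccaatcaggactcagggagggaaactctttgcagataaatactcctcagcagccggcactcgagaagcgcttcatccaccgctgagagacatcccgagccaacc
Ccl20: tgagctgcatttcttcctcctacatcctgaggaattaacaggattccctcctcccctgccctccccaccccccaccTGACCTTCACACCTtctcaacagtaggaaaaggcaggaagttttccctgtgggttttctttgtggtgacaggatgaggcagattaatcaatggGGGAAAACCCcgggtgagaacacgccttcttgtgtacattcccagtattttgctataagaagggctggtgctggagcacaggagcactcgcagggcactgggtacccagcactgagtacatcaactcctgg

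In these letters the Ccl3 window held an ROR site, at -186 from the start site. The Cxcl10 window held an interferon-stimulated response element at -213 and kappaB matches at -159 and -103. The Ccl20 window held an ROR site on the opposite strand at -174, a T-box site beside it at -168 without overlap, and a kappaB match at -81. Of 32851 promoter windows of the same length, 20.7% held the kappaB motif, 3.44% the interferon-stimulated response element, 16.3% the ROR site and 1.28% the T-box site. A STAT motif, TTCNNNGAA, was in 8.30% of all windows and in 0 of the 5 chemokine windows. Ccl1 also held overlapping kappaB matches on both strands, at -196 and -195, and Xcl1 held none of the motifs. The motifs were chosen with these sequences in view, and a match describes the letters only.

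Ccl3 and Ccl4, known as MIP-1alpha and MIP-1beta, attract macrophages and T cells, and Ccl3 binds CCR1. They were the most abundant of the 7 genes in the cultures with IL-12 and lower in the other cultures, where Ccl4 still reached 48.9 TPM with TGFb. Ccl3 is on the minus strand at chr11:83647843-83649378 and Ccl4 on the plus strand at chr11:83648624-83664683 (RefSeq, GRCm38.p6). Both are protein-coding, and in this annotation they share 755 bases, while GENCODE M21 leaves 13228 bases between them. The annotation behind the TPM values is not given in the sources used here, and the library kit does not mark strand, so how reads of the shared stretch were divided is uncertain.

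Ccl3 was 343.8, 228 and 395.5 TPM in GFPpos cells of IL-12+IL-21, 348 and 168 TPM in IL-12+IL-21 GFPneg cells, and 1422 and 2119 TPM in IL-12 GFPneg cells. It was 11.55, 4.14 and 14.1 TPM in IL-23 GFPpos cells, 5.43, 8.6 and 18.8 TPM in IL-23 GFPneg cells, 13.1 TPM in the TGFb GFPpos library and 10.05 and 9.15 TPM in TGFb GFPneg cells. The levels fell into 3 ranges without overlap, with both IL-12 libraries at the top, the 5 IL-12+IL-21 libraries below them and the 9 libraries of the remaining cultures at the bottom, where the groups overlapped. On the log2(TPM + 1) scale, Ccl3 in GFPneg cells was higher by 7.34 ± 0.47 (SE) in IL-12 than in IL-23 (limma, adjusted p = 6.81e-08) and by 7.36 ± 0.52 than in TGFb (adjusted p = 1.17e-07). IL-12+IL-21 GFPneg cells were higher by 4.51 ± 0.47 than IL-23 GFPneg cells (adjusted p = 2.39e-05). Between IL-23 and TGFb the difference was 0.01 ± 0.47 (adjusted p = 0.991).

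Ccl4 was 237, 217 and 270.2 TPM in GFPpos cells of IL-12+IL-21, 297.5 and 161 TPM in IL-12+IL-21 GFPneg cells, and 1327 and 2093 TPM in IL-12 GFPneg cells. In the remaining cultures it was 6.27, 4.64 and 4.87 TPM in IL-23 GFPpos cells, 8.71, 15.6 and 21.4 TPM in IL-23 GFPneg cells, 35.65 TPM in the TGFb GFPpos library and 48.9 and 36.9 TPM in TGFb GFPneg cells. Within the cultures that held IL-6, the 3 TGFb libraries stood above all 6 IL-23 libraries. In GFPneg cells Ccl4 was higher by 6.76 ± 0.32 on the log2 scale in IL-12 than in IL-23 (adjusted p = 3.01e-09) and by 5.26 ± 0.35 than in TGFb (adjusted p = 6.6e-08). In IL-23 GFPneg cells it was lower than in TGFb GFPneg cells, with a log2 difference of -1.50 ± 0.32 (adjusted p = 0.00478). That call was lost without TGFb GFPneg replicate 1 (-1.30, adjusted p = 0.0618), and with all 21 libraries the difference was 0.31 (adjusted p = 0.901).

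The ratio of Ccl3 to Ccl4, both in TPM, was 1.05 to 1.46 in IL-12+IL-21 GFPpos cells, 1.05 to 1.17 in IL-12+IL-21 GFPneg cells and 1.01 to 1.07 in IL-12 GFPneg cells. It was 0.892 to 2.90 in IL-23 GFPpos cells and 0.551 to 0.880 in IL-23 GFPneg cells, 0.369 in the TGFb GFPpos library and 0.206 to 0.248 in TGFb GFPneg cells. Ccl3 thus exceeded Ccl4 in the 7 libraries with IL-12 and was below it in the 3 libraries with TGFb. Across the 16 libraries the log2 levels of both genes had a Pearson correlation of 0.947. The parts in it of the separation of the cultures and of any overlap of the 2 gene models were not tested.

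**Figure D2:**
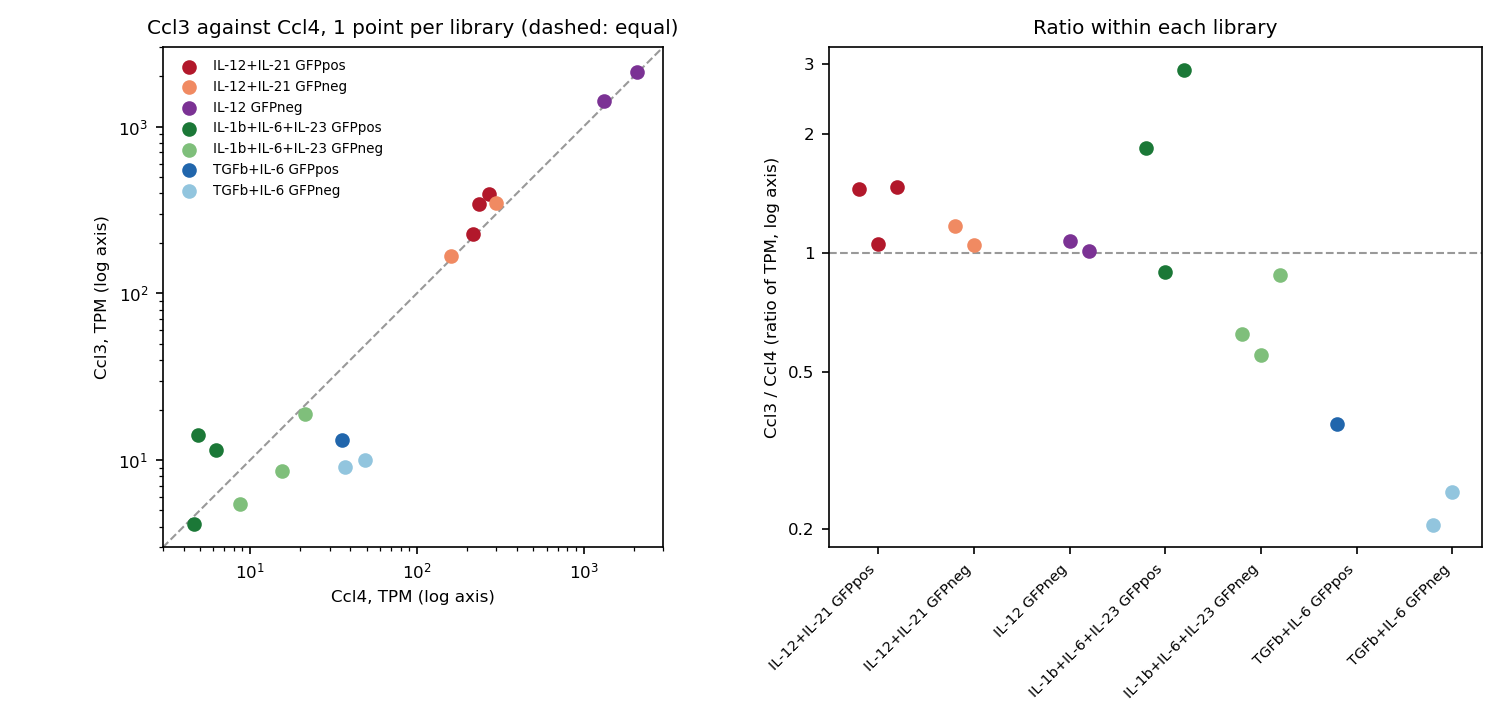
Ccl3 (vertical) against Ccl4 (horizontal) in TPM on log axes, and the ratio of Ccl3 to Ccl4 by group on a log axis, 1 point for each of the 16 libraries, with dashed lines where the levels are equal. Libraries with IL-12 lie near the line at 161 TPM and above, and the 3 TGFb libraries lie on the Ccl4 side of it, at ratios of 0.206 to 0.369.

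Ccl1 and Xcl1 were the rarest of the 7. Ccl1, a ligand of CCR8, lies at chr11:82176666-82179812, and Xcl1, lymphotactin, which attracts cross-presenting dendritic cells through XCR1, at chr1:164931644-164935522. Ccl1 was 1.47, 0 and 0 TPM in GFPpos cells of IL-12+IL-21, 1.37 and 0 TPM in IL-12+IL-21 GFPneg cells and 16.8 and 7.26 TPM in IL-12 GFPneg cells. In the remaining 9 libraries it was listed at 0 except for 0.96 TPM in IL-23 GFPneg replicate 3. Both IL-12 libraries were above all others, and IL-12 GFPneg cells exceeded IL-23 GFPneg cells by 3.28 ± 0.47 on the log2 scale (adjusted p = 0.000307). Xcl1 was 1.48, 0.86 and 2.22 TPM in GFPpos cells of IL-12+IL-21, 0 and 0.93 TPM in IL-12+IL-21 GFPneg cells, and 2.43 and 7.33 TPM in IL-12 GFPneg cells. It was listed at 0 in all 9 libraries of the other cultures, so no fold is given, and IL-12 GFPneg cells were higher than IL-23 GFPneg cells (adjusted p = 0.000537) and TGFb GFPneg cells (adjusted p = 0.000598). Both genes entered the test through the groups with IL-12, so these p-values are a description and no evidence of a difference. A value of 0 can be a failed estimate, and the depth behind these values is unknown.

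Cxcl10, or IP-10, is an interferon-induced ligand of CXCR3, and lies at chr5:92346638-92348889. Its levels were higher with IL-12+IL-21 than with IL-12. Cxcl10 was 21.7, 16.7 and 35.4 TPM in GFPpos cells of IL-12+IL-21, 25.4 and 23.3 TPM in IL-12+IL-21 GFPneg cells, and 5.67 and 3.24 TPM in IL-12 GFPneg cells. It was 3.07, 1.02 and 3.21 TPM in IL-23 GFPpos cells, 0.89, 0 and 2.02 TPM in IL-23 GFPneg cells, 2.16 TPM in the TGFb GFPpos library and 2.9 and 2.77 TPM in TGFb GFPneg cells. All 5 IL-12+IL-21 libraries stood above the other 11, which lay at 5.67 TPM or less. In GFPneg cells IL-12+IL-21 exceeded IL-23 by 3.82 ± 0.44 on the log2 scale (adjusted p = 5.96e-05) and TGFb by 2.72 ± 0.48 (adjusted p = 0.00183).

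Ccl5, or RANTES, attracts T cells, monocytes and eosinophils through receptors that include CCR1 and CCR3, and lies at chr11:83525778-83530518. Its pattern was unlike that of Ccl3 and Ccl4, as it was low in the TGFb cultures and present in the rest. Ccl5 was 59.3, 82.4 and 119.2 TPM in GFPpos cells of IL-12+IL-21, 61.8 and 92.7 TPM in IL-12+IL-21 GFPneg cells, and 270.1 and 182 TPM in IL-12 GFPneg cells. It was 135.4, 119.95 and 86.9 TPM in IL-23 GFPpos cells, 180.4, 167 and 175 TPM in IL-23 GFPneg cells, 8.62 TPM in the TGFb GFPpos library and 10.96 and 4.95 TPM in TGFb GFPneg cells. The 3 TGFb libraries were below all others. In GFPneg cells Ccl5 averaged 174 ± 6.81 TPM with IL-23 (SD, n = 3) and 7.96 ± 4.25 TPM with TGFb (n = 2), a log2 difference of 4.37 ± 0.32 (adjusted p = 2.19e-07). IL-12 GFPneg cells exceeded TGFb GFPneg cells by 4.72 ± 0.35 (adjusted p = 1.82e-07), whereas their difference from IL-23 GFPneg cells was 0.35 ± 0.32 (adjusted p = 0.581).

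Ccl20, the ligand of CCR6 and a chemokine that recruits Th17 cells and dendritic cells, lies at chr1:83116766-83119167. It was abundant with TGFb, at 926 TPM in the GFPpos library and 813 and 1068 TPM in GFPneg cells. In the other 13 libraries Ccl20 was at most 4.41 TPM and was listed at 0 in 5 of them. IL-23, the other culture with Il17a, had 0.65, 0 and 1.07 TPM in GFPpos cells and 0, 1.41 and 3.51 TPM in GFPneg cells. The GFPneg means were 1.64 ± 1.77 TPM with IL-23 (SD, n = 3) and 941 ± 181 TPM with TGFb (n = 2), a log2 difference of -8.72 ± 0.70 (adjusted p = 4.99e-07). IL-12 GFPneg cells were lower than TGFb GFPneg cells by a log2 difference of -8.18 ± 0.77 (adjusted p = 2.66e-06), and IL-12+IL-21 GFPneg cells by -9.24 ± 0.77 (adjusted p = 9.71e-07).

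Addition of IL-21 was read in GFPneg cells, as IL-12+IL-21 against IL-12. The libraries were replicates 1 and 2 of IL-12+IL-21 and replicates 2 and 3 of IL-12, which had no GFPpos group. Replicate set and sort cannot be told apart from IL-21 in this comparison. Ccl3 and Ccl4 fell and Cxcl10 rose, so 3 of 5 genes were called, against 0.761% of all tested genes, of which 0.313% rose and 0.448% fell. Ccl3 averaged 258 ± 127 TPM with IL-12+IL-21 and 1771 ± 493 TPM with IL-12 (SD, n = 2 each), a log2 difference of -2.84 ± 0.52 (adjusted p = 0.0194). Ccl4 averaged 229 ± 96.7 TPM with IL-12+IL-21 and 1710 ± 541 TPM with IL-12, a difference of -2.92 ± 0.35 (adjusted p = 0.000767). The groups did not overlap for either gene. Of the 5 genes 3 lay lower without overlap, as 27.8% of all tested genes did, and 1 lay higher, as 14.6% did.

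Of the rarer genes, given as a description only, Ccl1 averaged 0.685 ± 0.969 TPM with IL-12+IL-21 and 12.1 ± 6.77 TPM with IL-12 (adjusted p = 0.0141). Xcl1 averaged 0.465 ± 0.658 TPM with IL-12+IL-21 and 4.88 ± 3.46 TPM with IL-12 (adjusted p = 0.0317). Cxcl10 went the other way, with 24.3 ± 1.46 TPM with IL-12+IL-21 and 4.46 ± 1.72 TPM with IL-12, a log2 difference of 2.25 ± 0.48 (adjusted p = 0.0413). That Cxcl10 call was lost whichever library of these groups was left out, at log2 differences of 1.92 to 2.58. It remained in 5 of 9 other processing settings. Ccl5 had 77.3 ± 21.9 TPM with IL-12+IL-21 and 226 ± 61.97 TPM with IL-12 (-1.54 ± 0.35, adjusted p = 0.0592). That of Ccl5 passed with a pseudocount of 5 (0.0342), a minimum of 5 TPM (0.0418) and only the libraries compared (0.0242), and its adjusted p over all alternatives was 0.0242 to 1. Ccl20 had 0.695 ± 0.983 TPM with IL-12+IL-21 and 2.45 ± 1.74 TPM with IL-12 (adjusted p = 0.602). The median log2 difference of the 5 genes without Ccl1 and Xcl1 was -1.54, beside -0.09 over all tested genes.

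With 2 libraries a group, these calls, 5 with those of Ccl1 and Xcl1, depended on single libraries, and Ccl4 was the gene whose call remained whichever library was left out. Without IL-12+IL-21 GFPneg replicate 1 or without IL-12 GFPneg replicate 2 there were 3 calls, without IL-12 GFPneg replicate 3 there were 2, and without IL-12+IL-21 GFPneg replicate 2 there was 1. After median-ratio scaling Xcl1 was not called (adjusted p = 0.0539), and of all tested genes 38 rose and 23 fell, beside 30 and 43 as deposited. The 6 markers of erythroid cells and neutrophils, mainly Ly6g, summed to 6.18 to 6.51 TPM with IL-12+IL-21 and 20.6 to 42.6 TPM with IL-12 in these GFPneg cells, beside 5.20 to 6.26 TPM with IL-23 and 12.4 to 22.5 TPM with TGFb. S100a8, S100a9 and Hbb-bs were listed at 0 in all 16 libraries. The part of Ly6g in the result was not tested. The 6 markers of natural killer cells, which also make Ccl3, Ccl4, Ccl5 and Xcl1, summed to at most 0.12 TPM with IL-12+IL-21 and 0.63 TPM with IL-12. Ncr1 and Klrb1c among them were listed at 0 in all 16 libraries. The 2 CD8 T cell markers summed to 4.99 to 17.5 TPM over the 16 libraries, nearly all of it Cd8b1 (4.89 to 17.5 TPM), with Cd8a at most 0.29 TPM. In these GFPneg cells that sum was 5.94 to 8.14 TPM with IL-12+IL-21 and 5.37 to 6.73 TPM with IL-12. The 5 markers of B cells summed to at most 0.94 TPM, the 2 gamma-delta T cell markers in the table to at most 0.81 TPM and the 10 markers of myeloid and dendritic cells to 3.58 to 14.4 TPM. The last sum was mainly Xcr1 (2.53 to 12.3 TPM), while Cd68 reached 2.52 TPM and Cd14 1.37 TPM. Lyz2, Itgax, Adgre1, Fcer1g and Clec9a were listed at 0 in all 16 libraries.

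**Figure D3:**
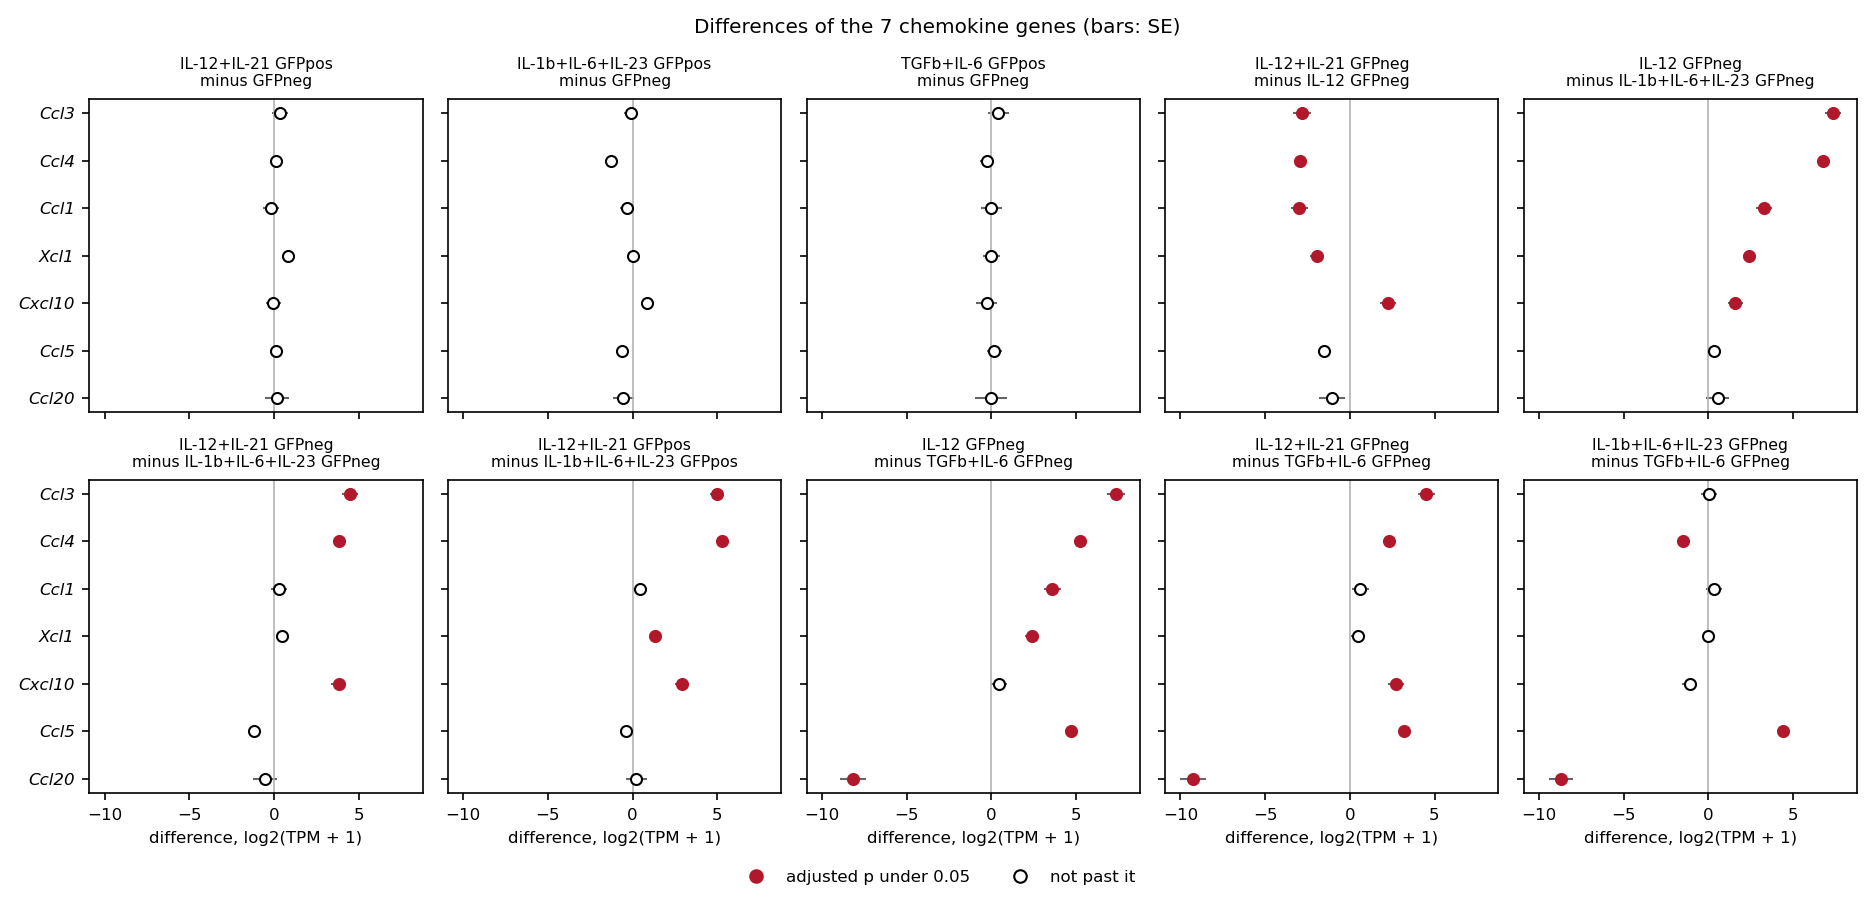
Log2 differences of the 7 genes on the log2(TPM + 1) scale with their standard errors. Panels show GFPpos against GFPneg cells of the same culture and the comparisons between cultures. Filled points have an adjusted p under 0.05 (limma). Differences with IL-12 against the Th17 cultures run up to 7.36 for Ccl3, and that of Ccl20 against TGFb runs down to -9.24.

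Between cultures with and without IL-12, the called genes of the set were mostly higher with it. In GFPneg cells 3 of 5 were higher in IL-12 than in IL-23 and 0 lower, where 4.3% of all tested genes were higher and 2.71% lower. The 3 were Ccl3, Ccl4 and Cxcl10, the last at a log2 difference of 1.57 ± 0.44 (adjusted p = 0.0421), which was lost without IL-12 GFPneg replicate 2 (adjusted p = 0.252) or 3 (0.0917) and without IL-23 GFPneg replicate 1 (0.0712) or 2 (0.145). This Cxcl10 call against IL-23 remained in 3 of 9 other processing settings. Against TGFb, IL-12 GFPneg cells had 3 of the 5 higher, Ccl3, Ccl4 and Ccl5, and Ccl20 lower, where 15.8% of all tested genes were higher and 5.09% lower. Cxcl10 was 4.46 ± 1.72 TPM with IL-12 and 2.83 ± 0.0919 TPM with TGFb (SD, n = 2 each; adjusted p = 0.523). Ccl1 and Xcl1 also passed in both comparisons, but they entered the test through the groups with IL-12, so this is a description only. The median log2 difference of the 5 genes was 1.57 against IL-23, beside 0.09 over all tested genes, and 4.72 against TGFb, beside 0.33.

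IL-12+IL-21 GFPneg cells had Ccl3, Ccl4 and Cxcl10 higher than IL-23 GFPneg cells, 3 of 5, where 2.16% of all tested genes were higher and 1.25% lower. Ccl5 ran the other way without passing, at -1.19 ± 0.32 (adjusted p = 0.0555). It passed with a pseudocount of 5 (0.0364), a minimum of 5 TPM (0.0407), median-ratio scaling (0.0437) and only the libraries compared (0.0162), and its adjusted p over all alternatives was 0.0162 to 0.965. Against TGFb GFPneg cells, IL-12+IL-21 GFPneg cells had Ccl3, Ccl4, Ccl5 and Cxcl10 higher and Ccl20 lower, where 4.81% were higher and 2.01% lower. These include Ccl4 at 2.34 ± 0.35 (adjusted p = 0.000446) and Ccl5 at 3.19 ± 0.35 (adjusted p = 1.93e-05). The medians of the 5 were 3.82 against IL-23, beside -0.0052 over all tested genes, and 2.72 against TGFb, beside 0.21. The comparisons with IL-12 and with IL-12+IL-21 share their IL-23 or TGFb libraries.

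Among the cultures without IL-12, IL-23 GFPneg cells had Ccl5 higher and Ccl4 and Ccl20 lower than TGFb GFPneg cells, 3 of 5, where 10.6% of all tested genes were higher and 4.83% lower (medians of -1.10 for the 5 genes and 0.23 for all). Among GFPpos cells, IL-12+IL-21 had Ccl3, Ccl4 and Cxcl10 higher than IL-23, 3 of 5, where 3.59% were higher and 1.38% lower (medians of 2.91 for the 5 genes and 0.15 for all). Ccl3 averaged 323 ± 85.6 TPM with IL-12+IL-21 and 9.94 ± 5.19 TPM with IL-23 (SD, n = 3 each), a log2 difference of 4.99 ± 0.42 (adjusted p = 1.26e-06). Ccl4 averaged 241 ± 26.9 TPM with IL-12+IL-21 and 5.26 ± 0.882 TPM with IL-23 (5.28 ± 0.29, adjusted p = 8.59e-09). Cxcl10 was higher by 2.91 ± 0.40 (adjusted p = 0.000183). The Xcl1 call (adjusted p = 0.0286) was lost, at adjusted p of 0.0809 to 0.145, without IL-12+IL-21 GFPpos replicate 1 or 3 and without any single IL-23 GFPpos library, and after median-ratio scaling (0.0622).

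The same scaling moved the split of all called genes in these comparisons, and no called chemokine gene changed direction. Genes higher and lower numbered 333 and 395 in IL-12 against IL-23 after scaling (412 and 260 as deposited) and 745 and 926 in IL-12 against TGFb (1512 and 488). They numbered 365 and 406 in IL-12+IL-21 against TGFb (461 and 193), 729 and 839 in IL-23 against TGFb (1015 and 463), and 250 and 227 in GFPpos cells of IL-12+IL-21 against IL-23 (344 and 132).

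Between GFPpos and GFPneg cells of the same culture, 0 of the 7 genes were called by limma in any of the 3 cultures with both. Of all tested genes, 0.156% were called in IL-12+IL-21, 0.427% in IL-23 and 0.323% in TGFb. At an unadjusted p under 0.05 there was 1 of the 7 in IL-12+IL-21, 3 in IL-23 and 0 in TGFb, beside 14.5%, 8.43% and 16.9% of all tested genes in the same cultures. In IL-23, Ccl4 was 5.26 ± 0.882 TPM in GFPpos cells and 15.2 ± 6.34 TPM in GFPneg cells (SD, n = 3 each; -1.30 ± 0.29, adjusted p = 0.0753), and it passed without GFPneg replicate 1 (-1.63, adjusted p = 0.0206). Ccl5 was 114 ± 24.8 TPM in GFPpos cells and 174 ± 6.81 TPM in GFPneg cells (-0.63 ± 0.29, adjusted p = 0.571). For both genes the 3 GFPpos libraries lay below the 3 GFPneg libraries, as 4.7% of tested genes did. The lone GFPpos library of TGFb was assumed to vary like the other groups, and its Ccl20, at 926 TPM, lay between the GFPneg values.

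The difference of the GFP effect between IL-12+IL-21 and IL-23 was called by limma for 0 of the 7 genes and 0% of all genes. Ccl4 had an unadjusted p under 0.05, at 1.44 ± 0.43 (adjusted p = 0.732). It was the single one of the 7, beside 474 of all tested genes.

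The receptors of these chemokines varied between the cultures too. Of 23 chemokine receptor genes, all in the table, 12 were abundant enough to test. In IL-12+IL-21 against IL-23, 3 rose and 2 fell in GFPneg cells (2.16% of all tested genes rose and 1.25% fell), and 3 rose and 2 fell in GFPpos cells (3.59% and 1.38%). In IL-12+IL-21 against TGFb GFPneg cells 3 rose and 3 fell (4.81% and 2.01%), and in IL-23 against TGFb 2 rose and 1 fell (10.6% and 4.83%). In IL-12 GFPneg cells 4 rose and 2 fell against IL-23 (4.3% and 2.71%), and 5 rose and 3 fell against TGFb (15.8% and 5.09%). In IL-12+IL-21 against IL-12, 0 of the 12 were called by limma (0.761% of all tested genes). Ccr6, the receptor of Ccl20, was 6.80 to 9.68 TPM in GFPpos cells of IL-12+IL-21, 4.22 to 5.30 TPM in IL-12+IL-21 GFPneg cells and 0.71 to 2.13 TPM in IL-12 GFPneg cells. It was 46.9 to 58.5 TPM in IL-23 GFPpos cells, 29.2 to 49.85 TPM in IL-23 GFPneg cells, 36.4 TPM in the TGFb GFPpos library and 24.6 to 30.3 TPM in TGFb GFPneg cells. Both cultures with IL-6 held Ccr6, whereas Ccl20 was abundant in 1 of them. In GFPneg cells Ccr6 was lower in IL-12 than in IL-23 (-4.02 ± 0.29, adjusted p = 1.92e-07) and than in TGFb (-3.61 ± 0.32, adjusted p = 1.13e-06).

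Cxcr3, the receptor of Cxcl10, was 17.3 to 29.5 TPM in GFPpos cells of IL-12+IL-21, 13.9 to 14.4 TPM in IL-12+IL-21 GFPneg cells and 9.28 to 9.29 TPM in IL-12 GFPneg cells. It was 15.3 to 28.9 TPM across the IL-23 libraries and lowest with TGFb, at 7.29 TPM in the GFPpos library and 1.06 and 3.26 TPM in GFPneg cells. Ccr8, the receptor of Ccl1, was lower in IL-23 than in TGFb GFPneg cells (-1.27 ± 0.36, adjusted p = 0.0264), with 5.70 to 8.37 TPM in the IL-23 cells and 18.4 to 18.7 TPM in the TGFb cells.

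**Figure D4:**
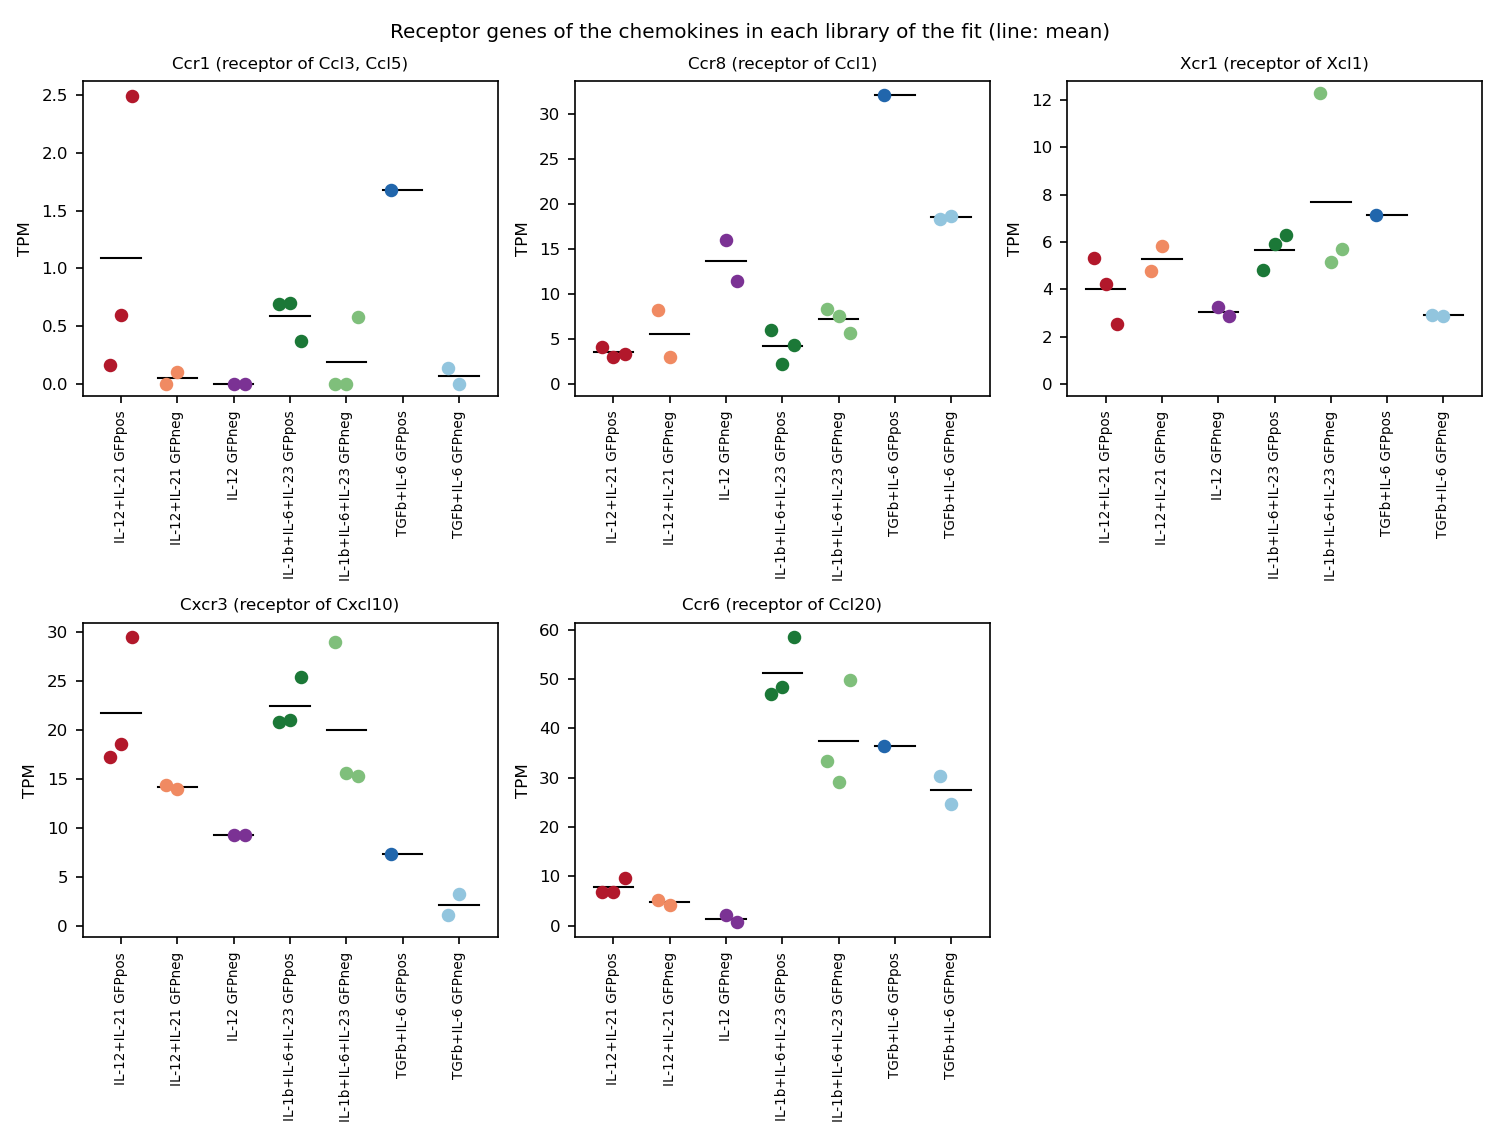
Levels in TPM of 5 receptors of these chemokines, 1 point for each of the 16 libraries by group. Ccr6 is 24.6 TPM or more in the cultures with IL-6 and at most 9.68 TPM in those with IL-12, and Cxcr3 is at most 7.29 TPM with TGFb and 9.28 TPM or more elsewhere.

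The genes most like each chemokine were taken from 5949 with a mean of at least 5 TPM in their highest group, by the Pearson correlation of log2 levels over the 16 libraries, with up to 2 named for each. For Ccl3 they were Ifng, which encodes IFN-gamma (r = 0.98), and Mphosph6 (r = 0.98). For Ccl4 they were Irf8, an interferon regulatory factor (r = 0.96), and Cd83 (r = 0.94), and for Ccl5 Fas, a death receptor (r = 0.95), and Ppic (r = 0.94). Ccl20 was matched by Gpr15, a receptor that directs T cells to the large intestine (r = 0.98), and Serpinb1a, a serine protease inhibitor (r = 0.97). Cxcl10 was matched by Nlrc5, the transactivator of MHC class I genes (r = 0.94), and Samhd1 (r = 0.90), and Ccl1 by March5 (r = 0.86). Xcl1 and Ccl1 are themselves low, and all these values describe libraries that share cultures. Among the 7, Ccl5 and Ccl20 had r = -0.88, and Ccl3 and Xcl1 r = 0.87.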

How the data were processed

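Bulk RNA-seq values were TPM, deposited by the authors as 1 table. The submitters' processing notes list RSEM 1.2.31, Bowtie2 2.2.9, Trimmomatic 0.32 and the build GRCm38. The annotation, filters and use of strand are not given in the sources used here. TPM sums are equal in every library, so depth is unknown and no counting interval is given. TPM are shares, so a rise of some transcripts lowers others, and the log2(TPM + 1) scale understates changes of low genes.

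Columns were tied to samples by name. Values were fitted as log2(TPM + 1) with limma 3.58.1 (R 4.3.3), with 7 group means, no block, a trended empirical Bayes prior and Benjamini-Hochberg adjustment over 9592 genes (1 TPM in at least 3 libraries) at 0.05. The code was tested on simulated data. Alternatives were pseudocounts of 0.1 and 5, no filter, a minimum of 5 TPM, median-ratio scaling, all 21 libraries, only those compared, the replicate number as a block, no trend, and each library left out. All 7 members are described; up to 2 genes most like each were named by correlation, and some results are not reported here. Members, libraries and lists were chosen with earlier results of these data known.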

Additional observations from a re-analysis of the deposited data

Results flagged for a closer look

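In the 5 libraries that were not used, fewer than 7000 genes reached 1 TPM, and some chemokine levels lay above the highest used library of their group. Each is a single library and was not tested. Ccl5 was 617.05 TPM in IL-12 GFPneg replicate 1, above 270.1 TPM. Ccl4 was 40.57 TPM and Ccl5 19.72 TPM in TGFb GFPpos replicate 2, above 35.65 and 8.62 TPM. Ccl5 was 973.18 TPM in TGFb GFPpos replicate 3, where the other 6 genes were listed at 0. In IL-12+IL-21 GFPneg replicate 3, Ccl4 was 416.34 TPM and Ccl5 563.77 TPM, above 297.5 and 92.74 TPM. Other levels lay below the used libraries of their group. Ccl3 was 219.74 TPM in IL-12 GFPneg replicate 1, below 1422.06 TPM. Ccl20 was 140.62 TPM in TGFb GFPpos replicate 2, below 925.89 TPM, and was listed at 0 in TGFb GFPneg replicate 3, below 812.79 TPM. Cxcl10 was listed at 0 in IL-12+IL-21 GFPneg replicate 3, below 23.31 TPM. Ccl1 was listed at 0 in IL-12 GFPneg replicate 1, below 7.26 TPM. The ratio of Ccl3 to Ccl4 was 0.121 in IL-12 GFPneg replicate 1 and 0.789 in IL-12+IL-21 GFPneg replicate 3, unlike the used libraries with IL-12.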

How the results depend on the processing

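Of the changes of single chemokine genes under the alternatives, 416 kept their direction and side of the threshold, 69 lost the call, 12 gained it and 1 reversed. The reversal was Ccl4 in IL-23 against TGFb GFPneg cells, 0.31 with all 21 libraries against -1.50. Counts of chemokine genes in this section include Ccl1 and Xcl1, which entered the test through the groups with IL-12. In IL-12+IL-21 against IL-12 GFPneg cells, where 5 genes were called, there were 2 with a pseudocount of 0.1, 2 with no filter, 2 with no trend, 0 with all 21 libraries and 1 to 3 with 1 library left out. In IL-12 against IL-23, where 5 were called, there were 3 with a minimum of 5 TPM, which removes Ccl1 and Xcl1 from the test, 2 with only the libraries compared and 0 with all 21 libraries. All 21 libraries also gave 0 in IL-12+IL-21 against IL-23 (3 in GFPneg and 4 in GFPpos cells with 16 libraries), against TGFb (5) and in IL-23 against TGFb (3), and 2 in IL-12 against TGFb (6), with 0 to 137 of all genes called in any test. The cause was not tested. Over all genes, IL-12+IL-21 against IL-12 called 73, against 30 with no trend and 135 with the replicate block, and GFPpos against GFPneg called 15 in IL-12+IL-21 (6 to 51 under these settings), 41 in IL-23 (0 to 51) and 31 in TGFb (0 to 250). After the group mean was subtracted, same-numbered libraries correlated at -0.0861 to 0.265 over 31 pairs, and 12 of 15 correlated best with their own number. In groups of 2 libraries the remainders mirror each other, so these 12 are not independent. It is a hint from the data and not the design. With the replicate block, IL-23 GFPpos against GFPneg had 1 call, Ccl4, where there were 0; leaving out 1 library gave 0 to 1. The block also added Cxcl10 in IL-23 against TGFb (adjusted p = 0.0434) and lost Xcl1 in IL-12+IL-21 against IL-12 (0.0562), and changed no other call. Median-ratio scaling moved the median of all genes, 0.37 at most on the log2 scale, to within 0.03 of 0 while the chemokine changes followed here kept their directions. Leaving out mostly ribosomal libraries was not run, since the share was 33.2% to 44.4% in those used, and neither was a fit of only the TGFb libraries, whose GFPpos arm is 1 library. Depth is unknown, so levels near 0 of Ccl1, Xcl1, Ccl20 and Cxcl10 limit what their absence shows.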

Other observations

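Other chemokine ligands were mostly absent. Of 31 further ligand genes in the table, 7 were abundant enough to test: Ccl9, Ccl22, Ccl25, Ccl27a, Cxcl3, Cxcl11 and Cxcl16. Cxcl11, like Cxcl10 an interferon-induced ligand of CXCR3, averaged 7.79 ± 3.07 TPM in GFPpos cells of IL-12+IL-21 and 0.34 ± 0.13 TPM in IL-23 GFPpos cells (SD, n = 3 each), a log2 difference of 2.66 ± 0.39 (adjusted p = 0.000443). Ccl9, a CCR1 ligand in mice, was higher in IL-12 than in IL-23 GFPneg cells (1.60 ± 0.37, adjusted p = 0.0138) and than in TGFb GFPneg cells (1.95 ± 0.40, adjusted p = 0.00326). Cxcl3, a neutrophil attractant, was lower in IL-12 (-2.29 ± 0.51, adjusted p = 0.00554) and in IL-23 (-1.46 ± 0.47, adjusted p = 0.0454) than in TGFb GFPneg cells. Ccl22, a ligand of CCR4, was higher in IL-12 (1.60 ± 0.43, adjusted p = 0.0153) and in IL-23 (1.60 ± 0.39, adjusted p = 0.0111) than in TGFb GFPneg cells. Both genes were low. In GFPneg cells Ccl22 averaged 2.48 TPM with IL-12, 2.62 TPM with IL-23 and 0.13 TPM with TGFb. Ccl22 reached 1 TPM only in the IL-12 and IL-23 cultures and so entered the test through them. Its p-values are a description and no evidence of a difference. Cxcl3 averaged 4.44 ± 3.39 TPM in TGFb GFPneg cells (SD, n = 2), uneven between the libraries, and was 0.6 TPM in the TGFb GFPpos library.

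Between GFPpos and GFPneg cells, 1 of 12 tested receptor genes was called in IL-12+IL-21 (0.156% of all tested genes), 1 in IL-23 (0.427%) and 0 in TGFb (0.323%). In IL-12+IL-21, Cxcr1, a receptor of neutrophil-attracting chemokines, was higher in GFPpos than in GFPneg cells (2.11 ± 0.36, adjusted p = 0.0264). In IL-23, Ccr7, which directs T cells to lymph nodes, was lower in GFPpos than in GFPneg cells (-1.03 ± 0.18, adjusted p = 0.0177).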
